A study of Mus musculus with 6 samples.

Results

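The transcripts described here are 38 genes for heat shock chaperones of the cytosol and the mitochondria, their partner proteins and the factors HSF1 and HSF2 that control them, out of 20036 genes in the deposited table. The genes were chosen by name, and each of the 38 names was found on 1 row of the table. RNA was sequenced from THP-1 cells, a human acute monocytic leukaemia line, made into macrophages with the phorbol ester PMA (100 ng/ml, 48 h) below the membrane of a Transwell insert. Tumour cells were then added above the membrane together with melittin, a membrane-lysing peptide from bee venom, at 3 µg/ml for 48 h. The design text describes these steps for the study as 1 procedure, and they are read here as those of the 3 libraries labelled Melittin, with the 3 labelled NC as controls that share the PMA step. Whether the NC cells had tumour cells above them or a vehicle is not given, so melittin and the co-culture cannot be told apart. Whether the libraries of a group came from separate cultures is not given, and p-values then measure only the spread between libraries, which may be technical.

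Heat shock chaperones bind unfolded or newly made proteins and keep them from aggregating. HSP70 proteins take up a client with the help of J-domain proteins (the DNAJ genes), which bring clients and start ATP hydrolysis, and release it with the help of nucleotide exchange factors, among them the HSP110 and BAG proteins. HSP90 then matures many kinases and receptors together with co-chaperones, and in mitochondria HSPD1 and HSPE1 form the folding chamber. When unfolded protein builds up, the transcription factor HSF1 is set free from chaperones and raises a set of inducible members. Textbook examples are HSPA6, HSPA1A, HSPA1B, DNAJB1, HSPH1, HSPB1, BAG3 and HSP90AA1, while HSPA8 and HSP90AB1 are made in unstressed cells. DNAJB12 and DNAJB14 are anchored in the membrane of the endoplasmic reticulum (ER), and HSPA13 has been found with ER-derived microsomes, so the group's name does not cover these 3 members.

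Libraries held 16001423 to 19597781 counts, and 12029 genes had enough counts to be tested. Organism labels read mouse, but all 20036 gene identifiers were human and 0 were mouse. Of 9 macrophage markers all 9 were tested, 2 higher and 6 lower with melittin, and their summed level was 1609 to 1617 CPM (counts scaled to a common library size) in NC and 853 to 863 CPM in melittin libraries. Of 10 markers of epithelial or prostate tumour cells, EPCAM, KRT18 and KRT19 had 0 counts in all libraries. The part of these marker lists in the chaperone results was not tested. In bulk RNA, fewer cells of a type and less RNA per cell cannot be told apart.

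Most of the chaperone genes were higher with melittin, by amounts that ran from a few percent to 9.04-fold. The inducible HSP70 genes HSPA6, HSPA1A and HSPA1B rose most, followed by the J-domain genes DNAJB4 and DNAJB5 and the HSP90 co-chaperone FKBP4. HSPA8, which held most of the HSP70 transcript, fell, and neither cytosolic HSP90 gene passed the test. Of 38 members 37 had enough counts to be tested, and HSPA2 did not. In edgeR's quasi-likelihood test, with p-values adjusted by Benjamini-Hochberg over all tested genes, 31 of the 37 passed an adjusted p of 0.05 (83.8%), where 76.4% of all tested genes passed. Of these, 25 were higher (67.6%, against 38.1% of all tested genes) and 6 lower (16.2%, against 38.3%). Against a fold change of 1.5 rather than 1, 9 members passed, where 29.1% of all tested genes did: 8 were higher, where 14.6% of all tested genes were, and 1 was lower, where 14.4% were. Among called genes, 6 members were at least 2-fold higher, where 9.53% of all tested genes were, and 0 were at least 2-fold lower, where 9.96% were. In 33 of the 37 the NC and melittin libraries did not overlap, where 77.4% of all tested genes did not: 25 lay higher and 8 lower with melittin, where 38.3% and 39.1% of all tested genes did. Each of these counts of higher members includes HSPA6, which had enough counts to be tested only through the melittin libraries. Each also includes HSPA1A and HSPA1B as 2 members, though reads of these near-identical genes cannot be placed with certainty. The members' median log2 fold change was 0.28, beside −0.007 over all tested genes, and their median absolute change was 0.43, beside 0.47.

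How libraries are scaled bears on the small changes. The CPM values here follow TMM scaling, which sets the typical gene to no change. With libraries scaled by their total counts alone, the median of all tested genes moved from −0.007 to −0.238, the share of all passing genes that were higher from 49.8% to 33.6%, and the members split into 19 higher and 11 lower. In that scaling the members' median was 0.05, which is 0.29 above that of all genes, as with TMM. HSF2, HSPD1, DNAJA1, DNAJA2 and DNAJC7, all called as small rises, had changes below 0 with totals alone. Strand use in the counting is not stated, and HSF1, HSPA14, HSP90AA1, AHSA1, HSPD1, HSPE1, TRAP1, DNAJB1, DNAJC7, BAG1, BAG5 and STUB1 overlap a gene on the opposite strand, whose reads cannot be told apart from theirs.

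**Figure D1:**
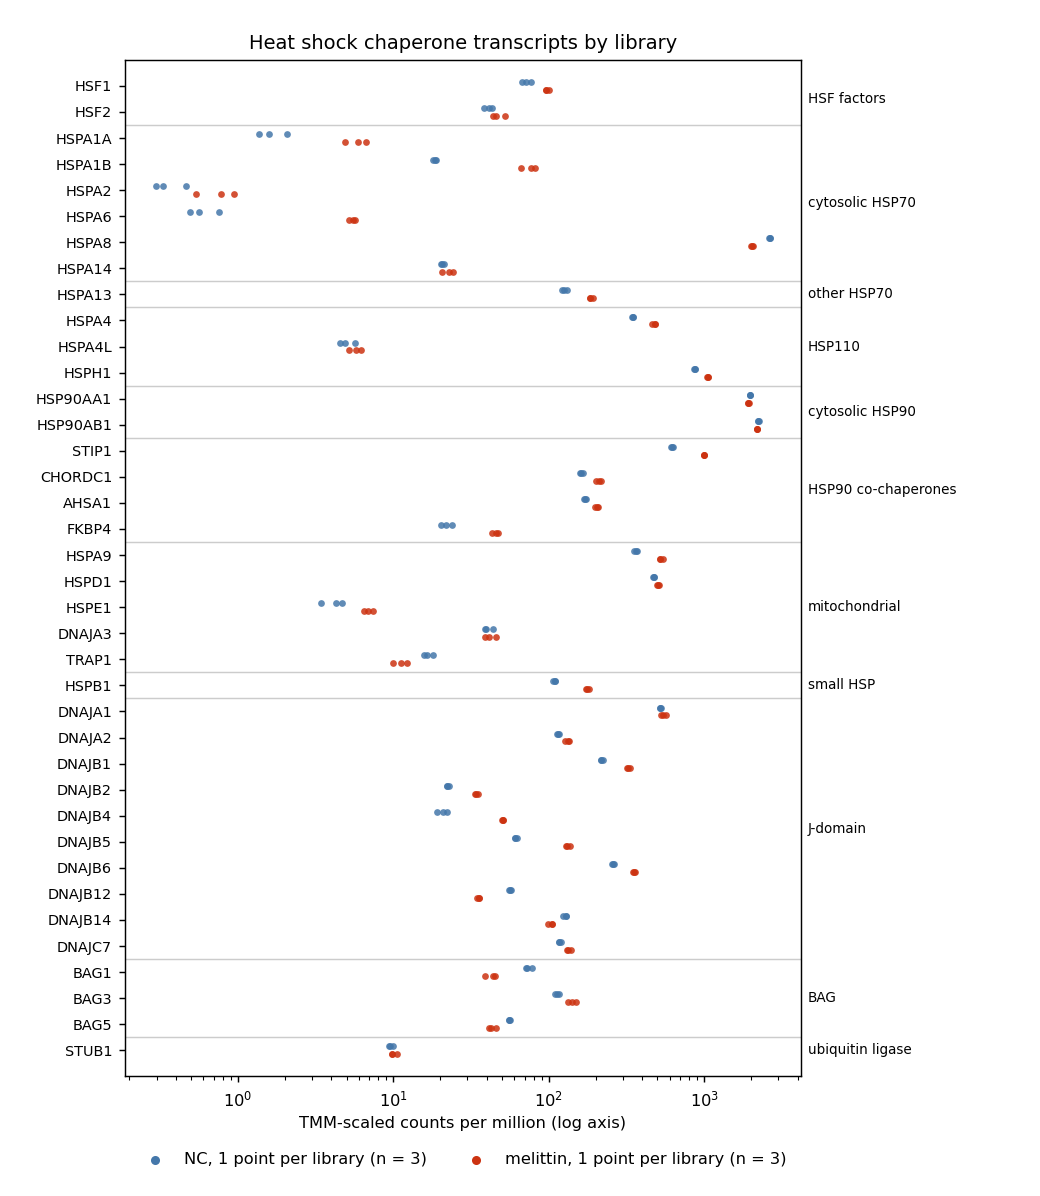
Level of each of the 38 genes in CPM (log axis) in each of the 3 NC (blue) and 3 melittin (red) libraries, 1 point per library, grouped by role. The genes span from under 1 CPM (HSPA2 and, in NC, HSPA6) to 2231 (HSP90AB1) and 2639 CPM (HSPA8) as NC means, and the replicates of a group lie close together beside the gap between groups for HSPA6, HSPA1A, HSPA1B, DNAJB4, DNAJB5 and FKBP4.

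Levels of different genes are compared here as FPKM, counts scaled by gene length and library total, since longer genes collect more reads. The lengths are the deposited ones, such as 4849 bases for HSPA8 and 2980 for HSP90AB1, and the order of genes depends on them. In CPM, HSPA8 stood above HSP90AB1 in NC (means of 2639 and 2231). In the NC libraries HSP90AB1 stood first with 810.5 ± 4.60 FPKM (SD, n = 3), HSPA8 next with 589 ± 4.35 and HSP90AA1 after them with 419.8 ± 1.38. These genes lay above 99.6%, or more, of all tested genes. DNAJA1, STIP1 and HSPH1 followed with 212, 145 and 112 FPKM. At the other end HSPA1A stood at 0.754 ± 0.165, HSPA6 at 0.277 ± 0.0611 and HSPA2 at 0.0713 ± 0.0173 FPKM. Neighbours in the order whose SD ranges overlapped included HSPA4 with HSPB1 (74.0 ± 1.05 and 72.6 ± 1.61) and HSF2 with CHORDC1 (16.4 ± 0.978 and 15.9 ± 0.351).

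HSPA8, HSP90AA1 and HSP90AB1 together gave 62.3% ± 0.0697 of the members' summed FPKM in NC and 53.4% ± 0.378 with melittin (SD, n = 3). This pool of the 3 members with the highest FPKM in NC was not set in advance. The fall was seen in 3 of 3 melittin libraries, which held 53.1 to 53.8% against 62.3 to 62.4% in NC. As a share within a library, this does not depend on how libraries are scaled to each other. It does depend on the gene lengths: of the members' counts, these genes gave 56.6% in NC and 47.5% with melittin (means). HSP90 co-chaperones went from 7.83% ± 0.112 to 10.97% ± 0.0567 of the sum, and cytosolic HSP70 from 20.8% ± 0.0931 to 16.1% ± 0.177. Changes of 2-fold or more were mostly in members with a low level in NC, a level that also enters the fold change. Of 6 members with at least 100 FPKM in NC, 0 changed 2-fold or more. Between 10 and 100 FPKM 1 of 18 did, and under 10 FPKM 5 of 13 tested members. Over all tested genes, 33 of 303, 326 of 3328 and 1987 of 8398 did so in these classes. The 5 members under 10 FPKM include HSPA6, and HSPA1A and HSPA1B as separate genes.

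**Figure D2:**
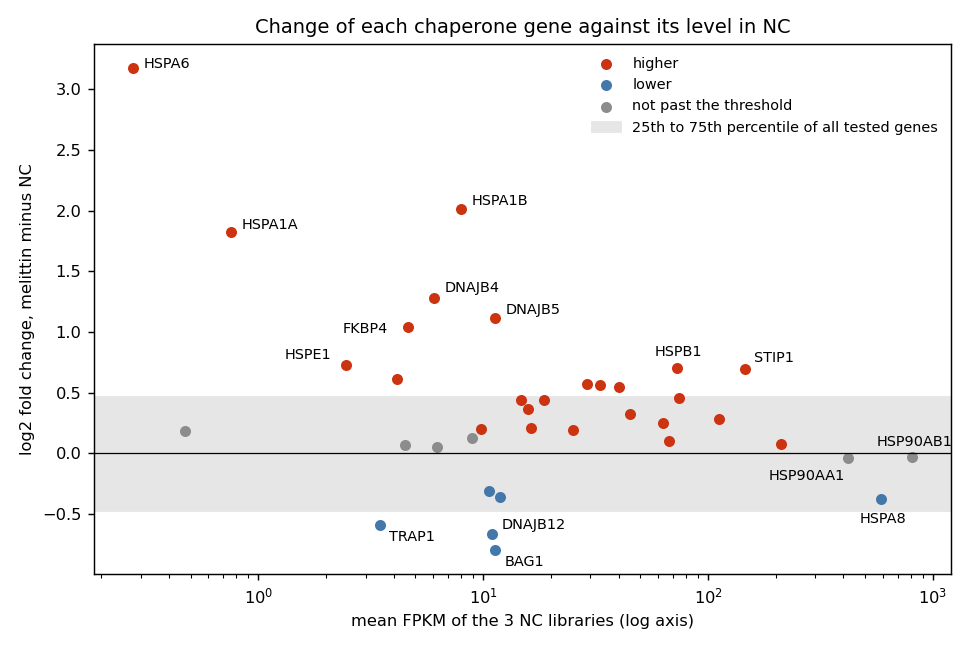
Change of each of the 37 tested genes (log2 fold change, melittin minus NC) against its mean FPKM in the 3 NC libraries (log axis), with genes past an adjusted p of 0.05 in red (higher) or blue (lower) and the others in grey. The grey band spans the 25th to 75th percentile of all tested genes, −0.48 to 0.46, and HSPA6, HSPA1A and HSPA1B stand far above it at the low and middle levels while HSP90AB1, HSPA8 and HSP90AA1 at the right lie inside it.

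HSF1, the main heat shock transcription factor, read 71.3, 67.5 and 76.8 CPM in NC replicates 1, 2 and 3, and 99.7, 95.4 and 95.6 CPM in melittin replicates 1, 2 and 3. All melittin libraries lay above all NC libraries, and the gene rose 1.35-fold (log2 fold change 0.43, SE 0.0445, adjusted p = 1.19e-09). HSF2, a related factor that can pair with HSF1, read 38.3, 41.0 and 43.2 CPM in NC and 45.5, 51.9 and 43.6 CPM with melittin. The groups were nearly touching, and the call (log2 fold change 0.21, adjusted p = 0.00399) ended without melittin replicate 2 (0.13, adjusted p = 0.0811) and when the fit took out a trend with gene length (0.03, adjusted p = 0.648). Messenger level does not report HSF1 activity, which is set mostly on the protein.

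Among the cytosolic HSP70 genes, the inducible forms rose and the abundant constitutive form fell. HSPA6 (ENSG00000173110, chromosome 1, 161524540 to 161526894, plus strand, GRCh38), a strictly stress-induced HSP70, read 0.492, 0.565 and 0.751 CPM in NC and 5.46, 5.18 and 5.70 CPM with melittin. This came from 10, 12 and 13 counts against 84, 93 and 85. It was the largest rise of the group at 9.04-fold (log2 fold change 3.18, SE 0.238, adjusted p = 1.93e-12), and it passed the filter on low counts, 0.566 CPM before TMM scaling in at least 3 libraries, through the melittin libraries, since only 2 NC libraries reached that level. HSPA1B (ENSG00000204388, chromosome 6, 31827738 to 31830254, plus strand), the main inducible HSP70 in these counts, read 18.6, 18.0 and 19.0 CPM in NC and 66.2, 76.7 and 82.0 CPM with melittin. The rise was 4.05-fold (log2 fold change 2.02, SE 0.069, adjusted p = 4.99e-20).

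HSPA1A (ENSG00000204389, chromosome 6, 31815543 to 31817946, plus strand) lies next to HSPA1B and encodes the same protein. The deposited counts put far fewer reads on it, 1.57, 1.37 and 2.08 CPM in NC and 6.70, 5.96 and 4.89 CPM with melittin (3.53-fold, adjusted p = 4.84e-09). Reads of such near-identical genes cannot be placed with certainty, so the pair is read as a sum. Summed, they read 20.2, 19.4 and 21.0 CPM in NC and 72.9, 82.7 and 86.9 CPM with melittin. As 1 feature the pair rose 4.01-fold (adjusted p = 9.46e-21, SE 0.0637 on the log2 scale), and the groups lay far apart.

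HSPA8 (ENSG00000109971, chromosome 11, 123057489 to 123063230, minus strand), the constitutive HSC70 that folds and sorts proteins in all cells, read 2616, 2654 and 2646 CPM in NC and 2048, 2043 and 1989.8 CPM with melittin. The groups did not overlap, and the gene was 1.30-fold lower (log2 fold change −0.38, SE 0.0186, adjusted p = 1.57e-16), a change that did not pass the test against 1.5-fold. HSPA1A plus HSPA1B relative to HSPA8 rose in every melittin library, from FPKM ratios of 0.0149, 0.0141 and 0.0154 in NC to 0.0689, 0.0782 and 0.0844, a 5.19-fold rise. HSPA8 thus remained far above the inducible pair in all libraries. An exact two-sided permutation test gave p = 0.1 (0.15 adjusted over the 3 ratios tested), and 0.1 is the smallest p that 3 against 3 libraries can give.

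HSPA14, a ribosome-associated HSP70, read 20.6 ± 0.476 CPM in NC and 22.5 ± 1.74 CPM with melittin (SD, n = 3), and did not pass (log2 fold change 0.13, adjusted p = 0.133). It overlaps an unnamed gene on the same strand (ENSG00000284024), so its reads are uncertain. HSPA2, an HSP70 best known from the testis, had 6, 7 and 8 counts in NC and 12, 17 and 8 with melittin and was too low to test. HSPA13 went from 122 to 132 CPM in NC to 184 to 192 CPM, a 1.48-fold rise (adjusted p = 1.17e-14).

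The HSP110 genes encode exchange factors that reset HSP70. HSPA4 rose 1.37-fold, from 342 to 350.4 CPM in NC to 462 to 483 CPM (log2 fold change 0.45, SE 0.0258). HSPH1, the stress-inducible HSP110, read 857, 871 and 873 CPM in NC and 1056, 1050.0 and 1059 CPM with melittin, a rise of 1.22-fold (log2 fold change 0.28, SE 0.0211, adjusted p = 1.86e-12). The inducible gene thus rose, but relative to HSPA4 it was lower: the FPKM ratio of HSPH1 to HSPA4 was 1.51 ± 0.0333 in NC and 1.34 ± 0.0365 with melittin (SD, n = 3; exact permutation p = 0.1). HSPA4L, a low transcript at 4.52 to 6.17 CPM, did not pass (log2 fold change 0.19, adjusted p = 0.254), and passed when the fit took out a trend with gene length (0.37, adjusted p = 0.0237).

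The cytosolic HSP90 genes did not pass the test, and how they compare with NC depends on the scaling. HSP90AA1, the inducible alpha form, read 1968, 1977 and 1984 CPM in NC and 1913, 1914 and 1939.7 CPM with melittin. Every melittin library was below every NC library, yet the difference was small (log2 fold change −0.04, SE 0.0185) and missed the threshold (adjusted p = 0.053). HSP90AB1, the constitutive beta form, read 2221, 2223 and 2248 CPM in NC and 2198, 2180.2 and 2176 CPM with melittin (log2 fold change −0.03, SE 0.0181, adjusted p = 0.134). Both passed as lower with libraries scaled by totals alone (−0.27 and −0.26), on log2 FPKM values, with limma-voom and without a low-count filter, HSP90AB1 also when the fit took out a trend with gene length (−0.18, adjusted p = 1.01e-09), and HSP90AA1 also without melittin replicate 1 or 3 (adjusted p = 0.0478 and 0.0191). HSP90AA1 relative to HSP90AB1 was 0.518 ± 0.00204 in NC and 0.514 ± 0.00631 with melittin (SD, n = 3), and these groups overlapped (exact permutation p = 0.5).

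HSP90 co-chaperones rose in 4 of 4 members, where 38.1% of all tested genes were higher. STIP1, the adaptor that hands clients from HSP70 to HSP90, read 627, 610.0 and 616 CPM in NC and 995, 1002 and 999.5 CPM with melittin. It had the largest absolute gain of CPM of these 4, 1.62-fold (log2 fold change 0.69, SE 0.0221, adjusted p = 9.93e-21). FKBP4, the immunophilin FKBP52 that serves steroid receptors, read 20.2, 23.9 and 21.9 CPM in NC and 43.2, 46.8 and 45.6 CPM with melittin, 2.06-fold higher (SE 0.0667 on the log2 scale, adjusted p = 6.97e-14). In both genes the groups did not overlap. CHORDC1, an HSP90-binding protein, and AHSA1, which speeds the ATPase of HSP90, rose 1.29-fold and 1.19-fold. AHSA1 did not pass with libraries scaled by totals alone (log2 fold change 0.02, adjusted p = 0.528).

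**Figure D3:**
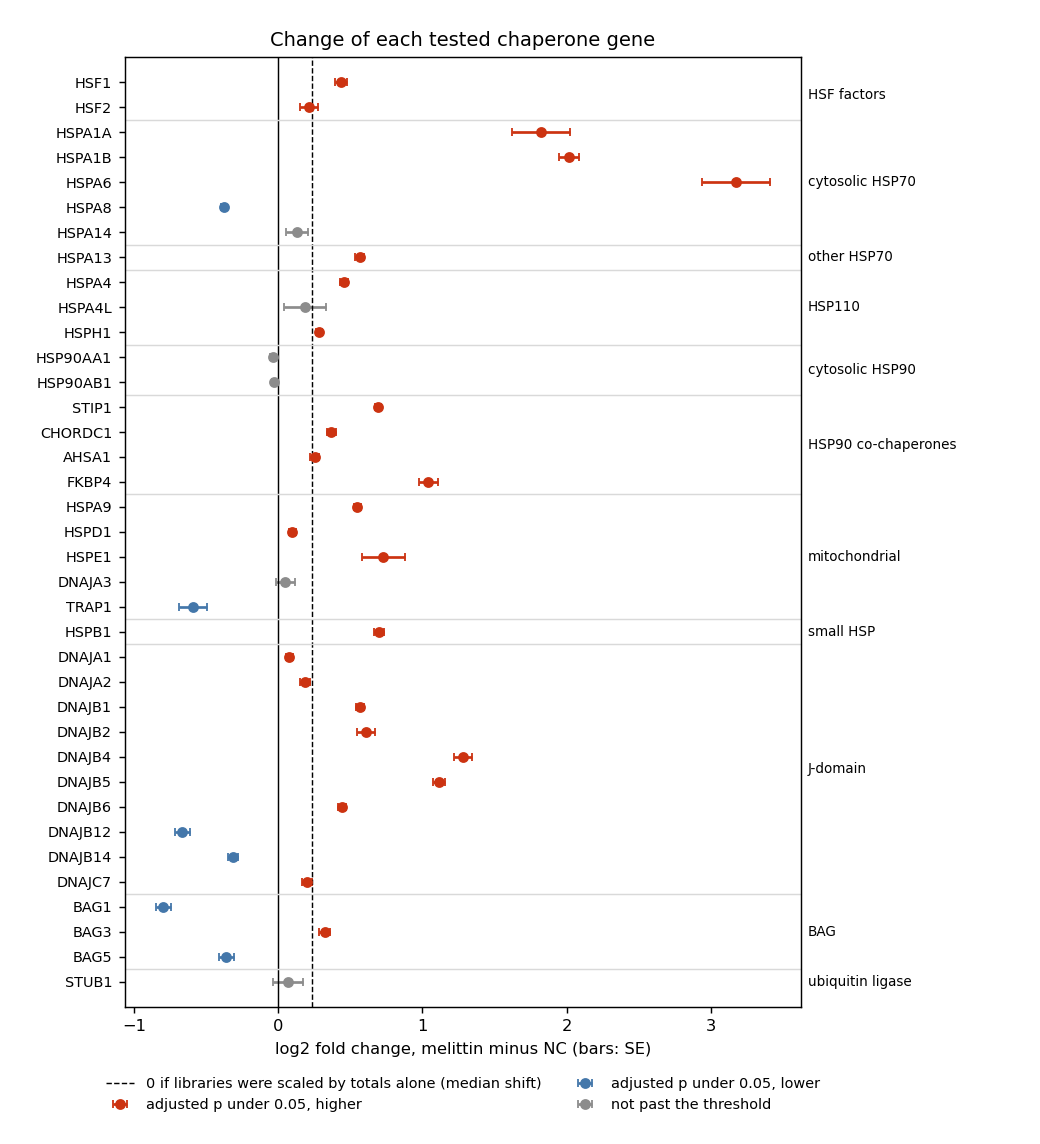
Log2 fold change (melittin minus NC) of each of the 37 tested genes with its SE as a bar, grouped by role, in red (higher) or blue (lower) where the adjusted p was under 0.05 and grey elsewhere. The dashed line marks where 0 would fall if libraries were scaled by totals alone, and the genes between the solid and dashed lines, such as HSPD1, DNAJA1 and HSF2, change sign with that choice.

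Mitochondrial members went in different directions. HSPA9, the mitochondrial HSP70 that pulls imported proteins through the membrane, rose 1.46-fold, from 353 to 367 CPM in NC to 520.1 to 545 CPM with melittin (log2 fold change 0.55, SE 0.0263, adjusted p = 1.06e-16). HSPD1, the large subunit of the folding chamber, read 474, 475 and 466 CPM in NC and 513, 498 and 501 CPM with melittin. That is a rise of 1.07-fold (adjusted p = 0.000845), and it became a fall of 0.13 on the log2 scale with libraries scaled by totals alone. TRAP1, the mitochondrial HSP90, went the other way, from 17.9, 16.5 and 15.7 CPM to 12.2, 11.1 and 9.92 CPM. The fall was 0.59 on the log2 scale (SE 0.0974, adjusted p = 4.18e-06), with no overlap between groups. DNAJA3, the J-domain partner of HSPA9, did not pass (log2 fold change 0.05, adjusted p = 0.486), and its groups overlapped.

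HSPE1 (chromosome 2, 197500140 to 197503449, plus strand), the lid of the folding chamber, read 4.28, 4.71 and 3.41 CPM in NC and 6.89, 7.35 and 6.43 CPM with melittin, from 59 to 132 counts a library. The rise was 1.66-fold (log2 fold change 0.73, SE 0.148, adjusted p = 7.9e-05), and it did not pass against 1.5-fold (adjusted p = 0.178). At 2.46 ± 0.396 FPKM in NC it stood far below its partner HSPD1 at 67.0 ± 0.82. HSPE1 overlaps the readthrough gene HSPE1-MOB4 on its own strand, which had 0 counts in all libraries, and HSPD1 on the other strand, so the level of HSPE1 is uncertain and the ratio of these partners cannot be read from the table.

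HSPB1, the small heat shock protein HSP27 that holds unfolding proteins and binds actin, read 106, 110.3 and 110.0 CPM in NC and 174, 175 and 181 CPM with melittin. All melittin libraries were above all NC libraries, and the rise of 1.62-fold (log2 fold change 0.70, SE 0.0325, adjusted p = 5.31e-17) also passed against 1.5-fold (adjusted p = 0.000774).

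Of the J-domain genes, the mitochondrial DNAJA3 did not pass, as given above. The other 10 all passed, 8 higher and 2 lower, where 76.4% of all tested genes passed, 38.1% higher and 38.3% lower. DNAJB4, a cytosolic partner of HSP70, read 19.2, 22.1 and 20.7 CPM in NC and 50.5, 50.7 and 49.7 CPM with melittin, 2.43-fold higher (adjusted p = 1.68e-16). DNAJB5, a close relative, read 60.8, 62.0 and 60.8 CPM in NC and 137, 129 and 131 CPM with melittin, 2.17-fold higher (adjusted p = 6.93e-20). DNAJB1, the HSP40 that partners inducible HSP70, read 218, 218 and 223 CPM in NC and 334, 322 and 320.0 CPM with melittin, 1.48-fold higher (log2 fold change 0.57, SE 0.0271, adjusted p = 1.02e-16). The 3 related class B genes thus rose, DNAJB4 and DNAJB5 by more than DNAJB1. DNAJB4 overlaps GIPC2 on its strand, which had 7 counts in all.

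DNAJB2, which delivers ubiquitinated clients to the proteasome, read 22.2, 22.7 and 22.2 CPM in NC and 33.9, 33.5 and 35.1 CPM with melittin (log2 fold change 0.61, SE 0.0649, adjusted p = 2.6e-09). DNAJB6, which holds back aggregates, rose 1.36-fold. The smallest changes were those of the class A genes DNAJA1 and DNAJA2 and of DNAJC7, which binds both HSP70 and HSP90. On the log2 scale DNAJA1 rose by 0.08 (SE 0.0262, adjusted p = 0.011), DNAJA2 by 0.19 and DNAJC7 by 0.20. The call on DNAJA1 ended without NC replicate 1 (adjusted p = 0.064), without melittin replicate 3 (adjusted p = 0.0897) and without a low-count filter (adjusted p = 0.0527).

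The ER-anchored pair fell together. DNAJB12 read 56.7, 55.1 and 57.2 CPM in NC and 34.7, 35.8 and 35.7 CPM with melittin, a fall of 0.67 on the log2 scale (SE 0.0521, adjusted p = 4.52e-12). DNAJB14, its relative, went from 124 to 129.7 CPM in NC to 99.1 to 105 CPM, a fall of 0.31 (SE 0.0357, adjusted p = 8.99e-09). Neither pair of groups overlapped, and neither gene passed against 1.5-fold (adjusted p = 0.0583 and 1).

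BAG proteins release clients from HSP70. BAG1, which also links HSP70 to the proteasome, read 71.5, 72.1 and 78.5 CPM in NC and 43.6, 39.1 and 45.2 CPM with melittin. It was the largest fall of the group, 1.74-fold lower (log2 fold change −0.80, SE 0.0544, adjusted p = 2.57e-13), and the only one past 1.5-fold (adjusted p = 0.000274). BAG3, the inducible relative that steers clients to autophagy, read 113, 109 and 117 CPM in NC and 133, 140.5 and 151 CPM with melittin, a rise of 1.25-fold (log2 fold change 0.32, SE 0.0396, adjusted p = 4.16e-08). BAG3 did not pass on log2 FPKM values (0.09, limma adjusted p = 0.105). The FPKM ratio of BAG3 to BAG1, a pair chosen after its values were seen, was 3.96 ± 0.123 in NC and 8.60 ± 0.706 with melittin (SD, n = 3). BAG5 fell from 55.2 to 56.2 CPM to 41.4 to 45.8 CPM (log2 fold change −0.36, adjusted p = 4.94e-07). STUB1, the ubiquitin ligase CHIP that marks chaperone clients for breakdown, was at 9.45 to 10.6 CPM in all libraries and did not pass (log2 fold change 0.07, adjusted p = 0.57).

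**Figure D4:**
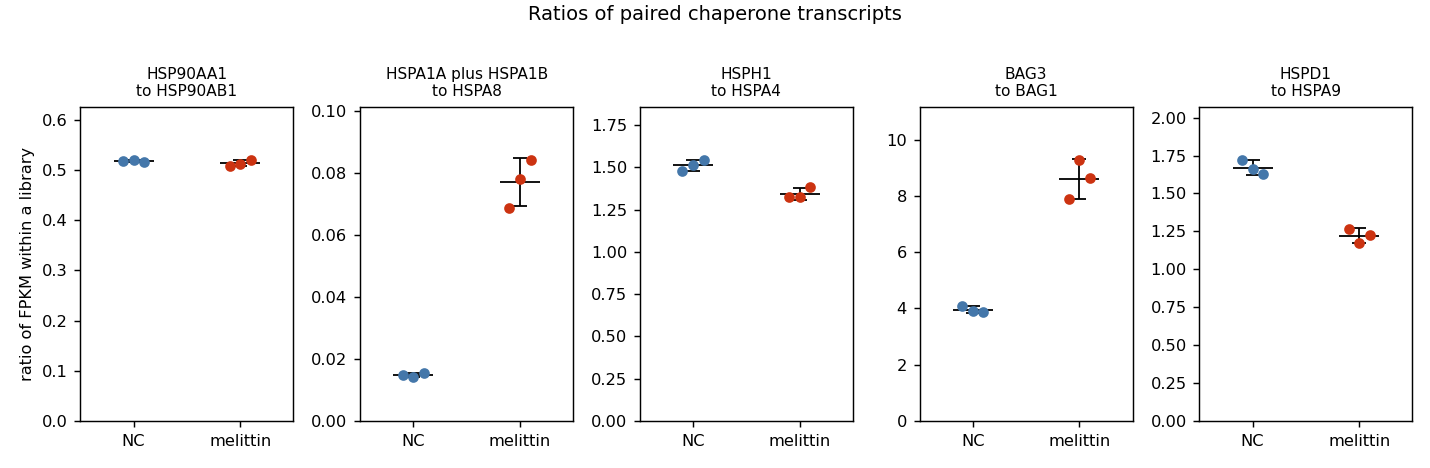
FPKM ratios of paired genes within each library, 1 point per library, with the mean and SD of 3 NC (blue) and 3 melittin (red) libraries, all axes starting at 0. HSP90AA1 to HSP90AB1 stays near 0.52 in both groups, HSPA1A plus HSPA1B to HSPA8 rises 5.19-fold, and BAG3 to BAG1 and HSPD1 to HSPA9, both chosen after their values were seen, move in opposite directions.

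A wider list of 44 other cytosolic and mitochondrial chaperone genes gave 42 tested members, of which 27 rose and 8 fell (83.3% called, where 76.4% of all tested genes were, 38.1% higher and 38.3% lower; median log2 fold change 0.30). Among the genes that rose were FKBP5, the relative of FKBP4, from 109 ± 0.876 to 227 ± 6.53 CPM (SD, n = 3), ST13, which stabilises client-bound HSP70, from 441 ± 9.33 to 707 ± 14.1 CPM, TCP1, from 435 ± 3.06 to 676 ± 19.2 CPM, and PFDN2, from 52.6 ± 1.90 to 119 ± 8.82 CPM. Other HSP90 co-chaperones rose in 8 of 9 members, and the remaining one, the phosphatase PPP5C, did not pass (log2 fold change 0.01, adjusted p = 0.859). The subunits of TRiC, the ring that folds actin and tubulin, were split: TCP1 and CCT4 rose, and CCT2, CCT3, CCT5 and CCT7 fell, CCT2 from 235 ± 3.67 to 143 ± 0.875 CPM and CCT5 from 491 ± 4.56 to 416 ± 6.59 CPM. BAG2, an inhibitor of the ligase STUB1, fell from 19.0 ± 1.90 to 9.56 ± 0.532 CPM, and VBP1, a prefoldin subunit, by 0.29 on the log2 scale. The small heat shock proteins CRYAB and HSPB8 were too low to test.

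Chaperones of the ER, which answer to the unfolded protein response rather than to HSF1, rose in 15 of 15 tested genes, where 38.1% of all tested genes were higher, with a median log2 fold change of 0.32 and values from 0.07 to 1.67. HSPA5, the ER HSP70, was 3.17-fold and HSP90B1, the ER HSP90, 1.81-fold higher, and MANF and DNAJB9 were 1.80-fold and 1.57-fold higher. With libraries scaled by totals alone 8 of the 15 were higher and 1 lower. The differences between these lists were not tested.

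**Figure D5:**
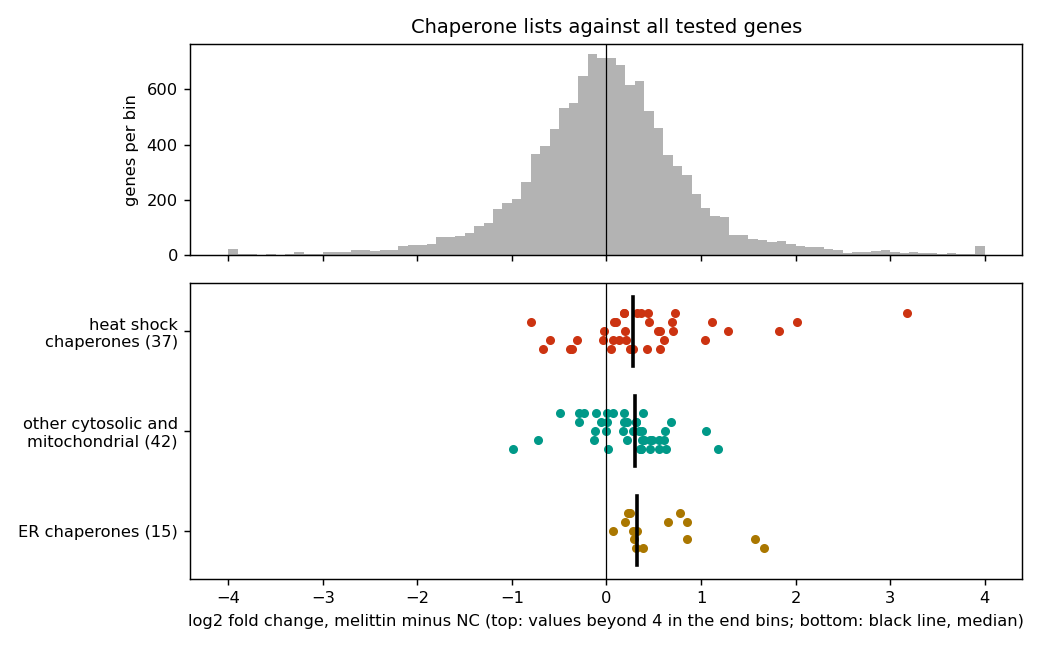
Log2 fold change (melittin minus NC) of all 12029 tested genes as a histogram (top, values beyond 4 in the end bins) and of the tested genes of each chaperone list as points (bottom), with the list's median as a black line. With TMM scaling the medians of the heat shock, other cytosolic and mitochondrial, and ER lists lie at 0.28, 0.30 and 0.32, and of these lists only the ER one has no gene below 0.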

How the data were processed

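Libraries came from total RNA isolated by a chloroform method and a NEBNext Ultra II kit, per the labels' protocols. The build was GRCh38, per the submitters' processing notes. Aligner, counter, strand use and annotation were not given in the sources used here. As values, the authors deposited raw read counts per gene and library, and FPKM values. From the values, each FPKM equals the count divided by gene length and library total (largest relative deviation 2.23e-09). A second deposited table holds the same FPKM values. Gene names and positions come from that annotated table. The reference at hand is of mouse and was not used, so no sequences are shown.

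The tests on counts used edgeR 4.0.16 (R 4.3.3) with filterByExpr, TMM scaling, glmQLFit and glmQLFTest (two-sided), Benjamini-Hochberg adjustment over 12029 genes and a threshold of 0.05. The SE is the absolute log2 fold change divided by the square root of the F statistic. Replicates of a group differed by more than counting noise (chi-square per degree of freedom 1.73 to 3.92, against 164.6 to 197 across groups), so each library counted as 1 replicate. A single count was worth 0.0471 to 0.067 CPM. On simulated counts with 200 of 12029 genes changed and the same spread set for all genes, edgeR found 86.6% of those set to 1.5-fold. It found 95.5% of those set to 2-fold, and 4.08% of calls were false. In the data 9190 genes were called, so these rates need not hold for this comparison. Ratios were compared with an exact permutation test. Alternatives used DESeq2 1.42.0, limma 3.58.1, and other scalings, filters and sets of libraries. Values of every library are given for called members with an absolute log2 fold change of at least 0.58 and for 13 named members, and group means or folds in the other lists for up to 4 called genes a direction with the smallest adjusted p. The remaining genes and the CCT subunits were named after their values were seen. Members and lists were chosen with earlier results of these data known. Some genes of the marker and wider chaperone lists, and the summed level of the tumour cell markers, are not reported here.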

Additional observations from a re-analysis of the deposited data

How the results depend on the processing

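Of the 37 tested members, 24 kept their direction and their side of the threshold under every alternative other than the test against 1.5-fold: 18 higher and 6 lower. With median-of-ratios size factors, DESeq2, library sizes without the 20 most abundant genes, at least 1 CPM in 3 libraries, and the replicate number as a block, all 37 did. Replicate numbers do not pair the libraries (correlation of same-numbered deviations −0.0461, 0.0178 and −0.0191), and with the replicate block 9050 genes passed against 9190, with 25 members higher and 6 lower in both. Scaling by totals alone gave 11 members lower, 15 lower in the wider list, 8 higher and 1 lower in the ER list, and a members' median of 0.052. It turned HSF2 (−0.021), HSPD1 (−0.135), DNAJA3 (−0.182), DNAJA1 (−0.156), DNAJA2 (−0.044) and DNAJC7 (−0.034) below 0, and also HSPA14 (−0.103), HSPA4L (−0.046) and STUB1 (−0.164), which did not pass in either scaling. FPKM is also scaled by totals. On log2(FPKM + 0.1) there were 12, 15, 8 and 1, with a median of 0.052, and HSF2 (−0.030), HSPD1 (−0.134), DNAJA3 (−0.176), DNAJA1 (−0.156), DNAJA2 (−0.043), DNAJC7 (−0.034), STUB1 (−0.165), HSPA14 (−0.107) and HSPA4L (−0.035) turned. On log2(FPKM + 1) there were 12, 15, 8 and 1 again, with a median of 0.0516, and the same 9 turned (HSF2 −0.029, HSPD1 −0.132, DNAJA3 −0.153, DNAJA1 −0.155, DNAJA2 −0.041, DNAJC7 −0.032, STUB1 −0.137, HSPA14 −0.097, HSPA4L −0.014). Against 1.5-fold 3495 genes passed (1761 higher, 1734 lower), with 8 members higher and 1 lower, 4 and 2 in the wider list and 6 higher in the ER list, since that test asks for a larger change. After a trend with gene length was taken out, the median was 0.374, DNAJA1 (−0.105), HSPA14 (−0.071) and STUB1 (−0.158) were below 0, HSF2 was lost, and HSPA4L passed as higher (0.374, adjusted p = 0.0237) and HSP90AB1 as lower (−0.178, adjusted p = 1.01e-09). The cause was not tested. Leaving out 1 library gave 24 to 26 members higher and 6 to 7 lower, and a median of 0.276 to 0.311. HSPA2 was tested and passed without NC replicate 3 or melittin replicate 3 (adjusted p = 0.0361 and 0.0236), and was tested and did not pass without NC replicate 1 or 2 (0.1 and 0.089) or without a low-count filter (0.0717). No NC library reached the filter, so it enters through the melittin libraries. HSPA14 passed without melittin replicate 1 (0.18, adjusted p = 0.0415). Depth limits HSPA2, HSPA6, HSPA4L, HSPE1 and HSPA1A, with at most 132 counts a library.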

Other observations

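Of 20 tested J-domain genes outside the lists, taken by name after the values were seen, 7 rose, 8 fell and 5 did not pass (median log2 fold change −0.15), which is near the share of all tested genes that were higher (38.1%) and lower (38.3%). DNAJA4, a cytosolic class A gene, went from 39.2 ± 1.98 to 71.5 ± 3.65 CPM (SD, n = 3; log2 fold change 0.87, edgeR adjusted p = 1.97e-14), a larger change than that of DNAJA1 or DNAJA2. DNAJC1, a J-domain protein of the ER membrane, rose from 39.6 ± 3.45 to 87.4 ± 4.03 CPM. DNAJC10, a disulphide reductase of the ER lumen, fell from 147.7 ± 3.88 to 85.9 ± 8.28 CPM, although 15 of 15 genes of the ER chaperone list rose. DNAJC13, a J-domain protein of endosomes, fell from 106 ± 2.37 to 58.0 ± 2.39 CPM, and DNAJC15, of the mitochondrial import motor, from 33.4 ± 2.45 to 21.6 ± 1.38 CPM.

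Of 6 further genes with an HSPB name, taken by name alone, 3 were tested. HSPB7 went from 0.347 ± 0.113 to 1.49 ± 0.297 CPM, from 5 to 8 counts a library in NC and 22 to 27 with melittin, and was tested only because the melittin libraries passed the low-count filter. HSPB3 rose from 0.959 ± 0.278 to 1.64 ± 0.585 CPM (adjusted p = 0.03) with overlapping groups, and HSPB11 fell by 0.29 on the log2 scale. HSPA1L, the HSP70 gene next to HSPA1A on the other strand, did not pass (1.56 ± 0.0511 and 1.23 ± 0.188 CPM, log2 fold change −0.33, adjusted p = 0.283). The FPKM ratio of HSPD1 to HSPA9, chosen after its values were seen, was 1.67 ± 0.0495 in NC and 1.22 ± 0.0465 with melittin.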
